A study of Mus musculus with 12 samples.

Results

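The change of Rack7-cKO astrocyte cultures between P1, the first time point of the series, and P8, the last, was measured by bulk RNA-seq. The comparison used 4 of the 12 libraries of the series, chosen by their labels, 2 of P1 Rack7-cKO and 2 of P8 Rack7-cKO. The series also held 2 of Rack7-cKO cultures at P6 and 6 of WT cultures. Rack7-cKO mice carried the hGFAP-Cre transgene and floxed alleles of *Rack7* (hGFAP-Cre::*Rack7* fl/fl), and WT mice carried the same transgene and intact alleles (hGFAP-cre::*Rack7* +/+). The human GFAP promoter turns Cre on in embryonic neural stem cells, which form both neurons and glia, so that cells of other descent, such as microglia, keep intact alleles. Brain tissue taken at each postnatal day was freed of its meninges and plated in primary astrocyte medium, and loosely attached microglia and oligodendrocytes were shaken off the flasks. The postnatal day is thus the age of the mouse at dissection, and each library came from cells grown afterwards in a dish. The labels call the libraries biological replicates but do not say how many animals, or of which sex, went into each one, so that the p-values below measure the spread between these libraries.

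Astrocytes arise from radial glia, the stem cells of the developing brain, around birth, divide locally during the first postnatal weeks and then take up their mature tasks. They clear glutamate and potassium from the space around synapses, form the endfeet that cover blood vessels, and secrete factors that help synapses to form. RACK7, the product of *Zmynd8*, is a chromatin protein that reads histone marks and works with repressor complexes. Cultures of this kind are known to keep other brain cells, foremost microglia and cells of the meninges and vessels. In such bulk samples fewer cells of a type and less RNA per cell cannot be told apart, and this holds for every marker gene below.

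The libraries labelled Rack7-cKO held 56148822 and 54413504 counted reads at P1 and 77554446 and 89183250 at P8. Levels are given as CPM, the read count scaled to library size with TMM factors, replicate 1 before replicate 2, and changes as log2 fold changes of P8 over P1 with their standard error (SE). *Zmynd8* stood at 213 and 216 CPM at P1 and 160.4 and 171 CPM at P8 in these libraries, above the 136 and 136 CPM at P1 and the 99.98 and 104 CPM at P8 of the libraries labelled WT. The count covers the whole gene, so that it does not check the deleted exons, and "Rack7-cKO" is used below as the label of the libraries. The paper checked RACK7 protein in WT and Rack7-cKO primary astrocytes by immunoblot. It also reports that a *Rack7* transgene lowered the raised expression of Wnt and astrocyte development genes in cKO astrocytes. The change of *Zmynd8* in the cKO cultures was -0.37 ± 0.047, which did not reach the fold required for a call. *Xist*, which is expressed from the inactive X chromosome of female cells, lay between 0.152 and 0.915 CPM in all 8 libraries of P1 and P8, and the sum of 4 Y-linked genes lay between 259 and 344 CPM there. All 4 libraries of P6 stood apart, with *Xist* between 825 and 1436 CPM and Y-linked sums between 0 and 0.0622 CPM, so that the time point P6 and this sex-linked pattern cannot be told apart. Because the P6 libraries entered the fit through the shared estimate of the spread, the scaling and the filter on low counts, the main counts are given with and without them.

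Of 17938 genes tested with edgeR's quasi-likelihood test, 1848 (10.3%) rose and 1788 (9.97%) fell from P1 to P8 in the cKO cultures. A gene was called when its Benjamini-Hochberg adjusted p was below 0.05 and its fold change at least 1.5, and both P8 libraries lay on the same side of both P1 libraries for all 3636 called genes (20.3% of those tested). The rises reached at least 4-fold for 388 genes and at least 16-fold for 129, and the falls for 418 and 70. No read was counted at P1 for 78 of the rising genes, and none at P8 for 19 of the falling ones. The median log2 fold change of all genes tested was 0.016. The shares of 10.3% higher and 9.97% lower of all genes are the comparison for each list count below. With only the 4 compared libraries in the fit the counts were 1703 up and 1805 down, and with the 8 libraries of P1 and P8 they were 1821 and 1813.

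**Figure D1:**
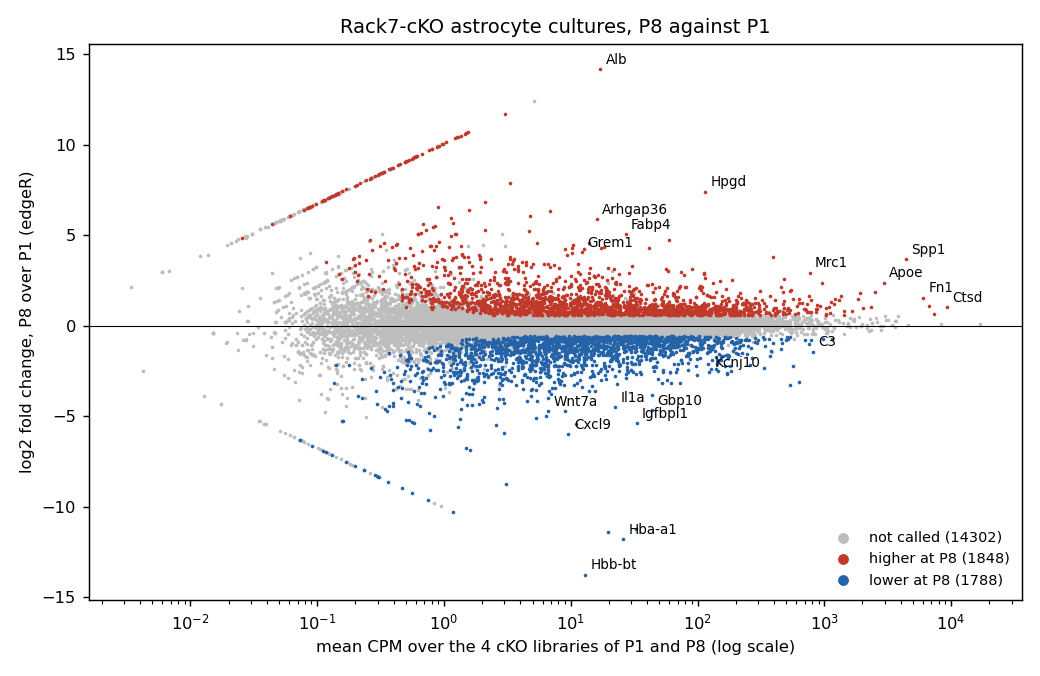
Log2 fold change of P8 over P1 in Rack7-cKO cultures (y axis) against the mean level over the 4 libraries in CPM (x axis, log scale), 1 point per gene. The 1848 genes called higher are red, the 1788 called lower are blue and those not called are grey, and the slanted lines of points at low levels are genes with no count at one of the time points.

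Among genes with a mean of at least 5 CPM, the largest rises belonged to genes of varied function. *Alb*, which encodes serum albumin, was at 0 in both P1 libraries and at 30.8 and 37.7 CPM at P8, at least 1322-fold higher when 3 counts over the P1 group serve as the floor. *Hpgd* (ENSMUSG00000031613, chr8:56294585-56321043), which encodes the enzyme that breaks down prostaglandins, was at 1.34 and 1.32 CPM at P1 and 237 and 217 CPM at P8, a log2 fold change of 7.41 ± 0.197 (adjusted p = 2.42e-08). The fatty acid carrier *Fabp4* was at 0.833 and 2.33 CPM at P1 and 54.1 and 51.2 CPM at P8 (5.06 ± 0.41). *Arhgap36*, an inhibitor of protein kinase A known from Hedgehog signalling, went from 0.731 and 0.334 to 30.8 and 32.5 CPM (5.88 ± 0.27). The chemokine *Ccl8* was at 1.96 and 1.51 CPM at P1 and 35.2 and 34.8 CPM at P8 (4.33 ± 0.56). *Dio3*, which inactivates thyroid hormone, rose by 4.28 ± 0.35, *Abi3bp*, a matrix protein, by 4.55 ± 0.55, the poorly described *Nxpe5* by 4.76 ± 0.39, and *C4bp*, a complement inhibitor, was at 0 and 0.334 CPM at P1 and 12.8 and 14.4 CPM at P8. *Tnmd*, known as a tendon and ligament protein, was at 2.04 and 1.25 CPM at P1 and 33.4 and 32.4 CPM at P8. The remaining members of these 12 were *P2rx3* and *Gm21982*, which overlap other genes (*Ssrp1*, and *Rbm42* and *Haus5*) so that their reads may belong to these. The rule that picked the genes of this paragraph required both P8 libraries to lie on one side of both P1 libraries.

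The largest falls included a set of red blood cell genes. *Hbb-bt* was at 22.4 and 29.5 CPM at P1 and at 0 in both P8 libraries, at least 1361-fold lower by the same floor, and *Hba-a1* was at 49.4 and 53.9 CPM at P1 and 0 and 0.0238 CPM at P8. *Hba-a2* was at 35.5 and 42.5 CPM at P1 and 0 and 0.0238 CPM at P8, and *Hbb-bs* at 59.3 and 72.004 CPM at P1 and 0.0546 and 0 CPM at P8. Reads could be split between the similar copies *Hba-a1* and *Hba-a2*, and between *Hbb-bs* and *Hbb-bt*. Next came *Cxcl9*, an interferon-induced chemokine (chr5:92321347-92328079), which was at 18.8 and 19.03 CPM at P1 and 0.464 and 0.143 CPM at P8 (-5.98 ± 0.61, adjusted p = 6.49e-05). *Igfbpl1*, known from immature neural cells (chr4:45809468-45826923), was at 62.7 and 66.4 CPM at P1 and 1.43 and 1.605 CPM at P8 (-5.41 ± 0.13). The cytokine gene *Tnfsf15* was at 21.05 and 22.2 CPM at P1 and 0.423 and 0.559 CPM at P8 (-5.45 ± 0.29), and *Slc24a4*, a potassium-dependent sodium and calcium exchanger, at 11.2 and 9.55 CPM at P1 and 0.164 and 0.428 CPM at P8 (-5.098 ± 0.48). *Stra6*, the cell's receptor for retinol-binding protein, was at 13.04 and 11.7 CPM at P1 and 0.368 and 0.416 CPM at P8 (-4.97 ± 0.37), though it overlaps Ccdc33. *Gbp10*, an interferon-induced GTPase, was at 83.5 and 83.9 CPM at P1 and 2.09 and 4.45 CPM at P8 (-4.67 ± 0.43). *Wnt7a*, a Wnt ligand, was at 11.4 and 14.1 CPM at P1 and 0.368 and 0.594 CPM at P8 (-4.71 ± 0.25). The last of the 12, *Gm38182*, stood at 2.45 and 32.4 CPM in the P1 libraries, and without P1 replicate 2 its change was -1.88 with an adjusted p of 0.142.

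The 6 most abundant genes called in each direction included lysosomal, matrix and complement genes. *Ctsd* and *Ctsb*, which encode the lysosomal proteases cathepsin D and B, were at 6095 and 6146 CPM at P1 and 12513 and 12542 CPM at P8 (1.03 ± 0.037) and at 4289.99 and 4317 CPM at P1 and 8995 and 9001 CPM at P8 (1.06 ± 0.024). Lysozyme (*Lyz2*), made by macrophages and microglia, was at 5683 and 5721 CPM at P1 and 8836 and 8847 CPM at P8 (0.63 ± 0.022). *Spp1*, the secreted phosphoprotein osteopontin (chr5:104435118-104441050), was at 635 and 653 CPM at P1 and 8368 and 8039.7 CPM at P8 (3.67 ± 0.037, adjusted p = 1.13e-10). *Apoe*, which carries lipids out of astrocytes and macrophages, was at 1126 and 769 CPM at P1 and 5015 and 4839.6 CPM at P8 (2.38 ± 0.24). *Fn1*, fibronectin, was at 3205 and 2937 CPM at P1 and 8868 and 9079 CPM at P8 (1.55 ± 0.079). Of the abundant genes that fell, *C3*, the central complement component, was at 1190.2 and 1187 CPM at P1 and 434 and 448 CPM at P8 (-1.43 ± 0.11), and the intermediate filament gene *Nes*, nestin, at 1029.8 and 997 CPM at P1 and 494 and 504 CPM at P8 (-1.02 ± 0.041). *Pea15a*, named for its enrichment in astrocytes, was at 1453 and 1446 CPM at P1 and 858 and 860.4 CPM at P8 (-0.75 ± 0.057). *Cp*, the copper protein ceruloplasmin, changed by -0.79 ± 0.051, the prion protein gene *Prnp* by -0.77 ± 0.047, and the class I antigen gene *H2-K1* by -0.72 ± 0.047.

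**Figure D2:**
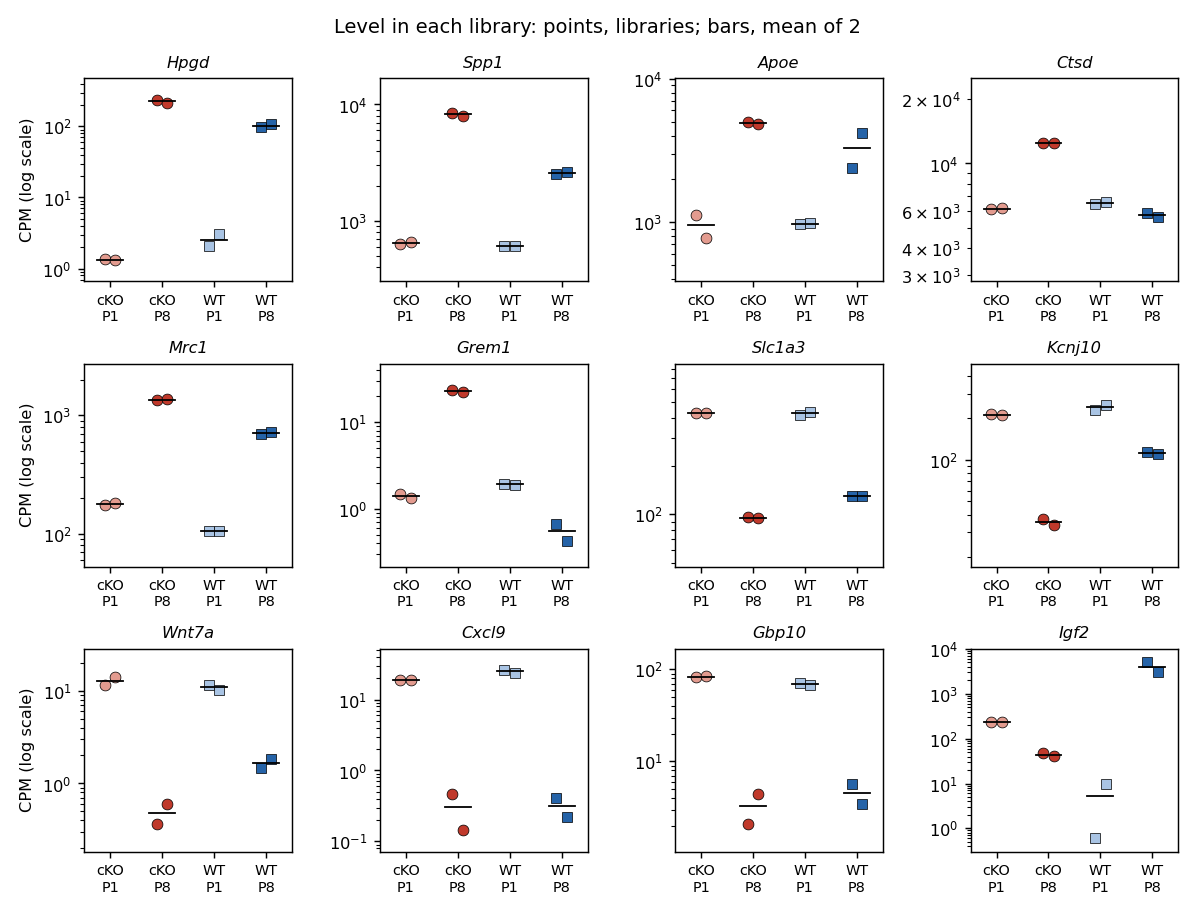
Level of 12 genes in CPM (y axes, log scales that differ between panels) in the P1 and P8 libraries of Rack7-cKO (circles) and WT cultures (squares), with bars at the mean of 2 libraries. In the cKO cultures *Hpgd*, *Spp1*, *Apoe*, *Ctsd*, *Mrc1* and *Grem1* were higher at P8 in both libraries, and *Slc1a3*, *Kcnj10*, *Wnt7a*, *Cxcl9*, *Gbp10* and *Igf2* lower.

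Genes of astrocyte identity and maturation fell more often than they rose. Of 35 tested, 20 fell and 4 rose, against 9.97% and 10.3% of all genes, and the median log2 fold change was -0.95. *Kcnj10*, the potassium channel of astrocyte membranes, was at 213 and 210.5 CPM at P1 and 37.2 and 33.8 CPM at P8 (-2.58 ± 0.086). *Aqp4*, the water channel of the endfeet, was at 564 and 562 CPM at P1 and 113 and 109 CPM at P8 (-2.34 ± 0.074). *Slc1a3*, the glutamate transporter GLAST, was at 425 and 425 CPM at P1 and 95.8 and 94.7 CPM at P8 (-2.16 ± 0.085). *Gfap*, the filament protein whose human promoter drives the Cre transgene, was at 578 and 559 CPM at P1 and 184 and 176 CPM at P8 (-1.66 ± 0.059). *Aldh1l1*, a folate enzyme used as a pan-astrocyte marker, fell by 3.19-fold, the transcription factor gene *Sox9* by 2.35-fold and *Gpr37l1*, a receptor for prosaposin, by 2.06-fold. The members that rose were *Apoe*, *Cst3*, encoding the protease inhibitor cystatin C (363 and 295 CPM at P1 and 652 and 625 CPM at P8, 0.96 ± 0.11), the calcium-binding protein gene *S100b* (1.43 and 2.44 to 6.03 and 5.25 CPM) and *Dio2*, which activates thyroid hormone (11.9 and 8.71 to 20.1 and 21.03 CPM). Summed over the 34 members other than *Apoe*, the list stood at 5567.5 and 5462.1 CPM at P1 and at 3077.9 and 3059.2 CPM at P8. With *Apoe* the sums were 6693.6 and 6231.5 and then 8093.1 and 7898.8 CPM, so that the summed level went up or down with this 1 gene, which macrophages also express.

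Radial glia and neural stem cell genes shared this direction in part. Here 10 of 20 fell and 4 rose, with a median of -0.86. *Prom1*, a membrane protein of stem cells, was at 17.1 and 14.7 CPM at P1 and 1.92 and 1.41 CPM at P8 (-3.25 ± 0.24), and *Sox1* at 35.4 and 35.2 CPM at P1 and 6.07 and 7.24 CPM at P8 (-2.41 ± 0.14). *Sox2*, a core stem cell factor, was at 144 and 149 CPM at P1 and 69.2 and 64.4 CPM at P8 (-1.14 ± 0.081), and the fatty acid binding protein gene *Fabp7* at 134 and 133 CPM at P1 and 60.8 and 56.8 CPM at P8 (-1.18 ± 0.078). The members that rose were *Hmga2*, a chromatin protein of young stem cells (1.15 ± 0.091), the atypical homeodomain gene *Hopx* (0.99 ± 0.22), the growth factor receptor gene *Egfr* (0.76 ± 0.055) and the Notch target *Hes1* (0.65 ± 0.15). The most abundant members did not pass: *Vim*, vimentin, was at 2415 and 2686 CPM at P1 and 2135 and 2143 CPM at P8, and *Tnc*, tenascin C, at 2152 and 2149 CPM at P1 and 2153 and 2179.8 CPM at P8.

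Genes that reactive astrocytes switch on fell in 13 of 34 cases and rose in 2, with a median of -0.25. The iron carrier gene *Lcn2* was at 286 and 337 CPM at P1 and 58.9 and 50.8 CPM at P8 (-2.51 ± 0.204), *Cxcl10* at 126 and 135 CPM at P1 and 13.9 and 15.7 CPM at P8 (-3.14 ± 0.15) and the transglutaminase gene *Tgm1* at 12.4 and 15.5 CPM at P1 and 1.61 and 2.01 CPM at P8 (-2.94 ± 0.28). Among the rest, *Gbp2*, *C3* and *Psmb8* are also interferon or complement genes, and the call of *Psmb8* was lost without P1 replicate 2 or either P8 library (adjusted p between 0.0541 and 0.0725). The risers were *Fbln5*, an elastic fibre protein (2.14 ± 0.21), and *Sphk1*, a lipid kinase (1.54 ± 0.51), and the count of risers was 1 without any P6 library, either WT library of P8 or P8 replicate 1 of the cKO. *Serpina3n*, *Timp1* and *Hspb1* were on this list and were not called.

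**Figure D3:**
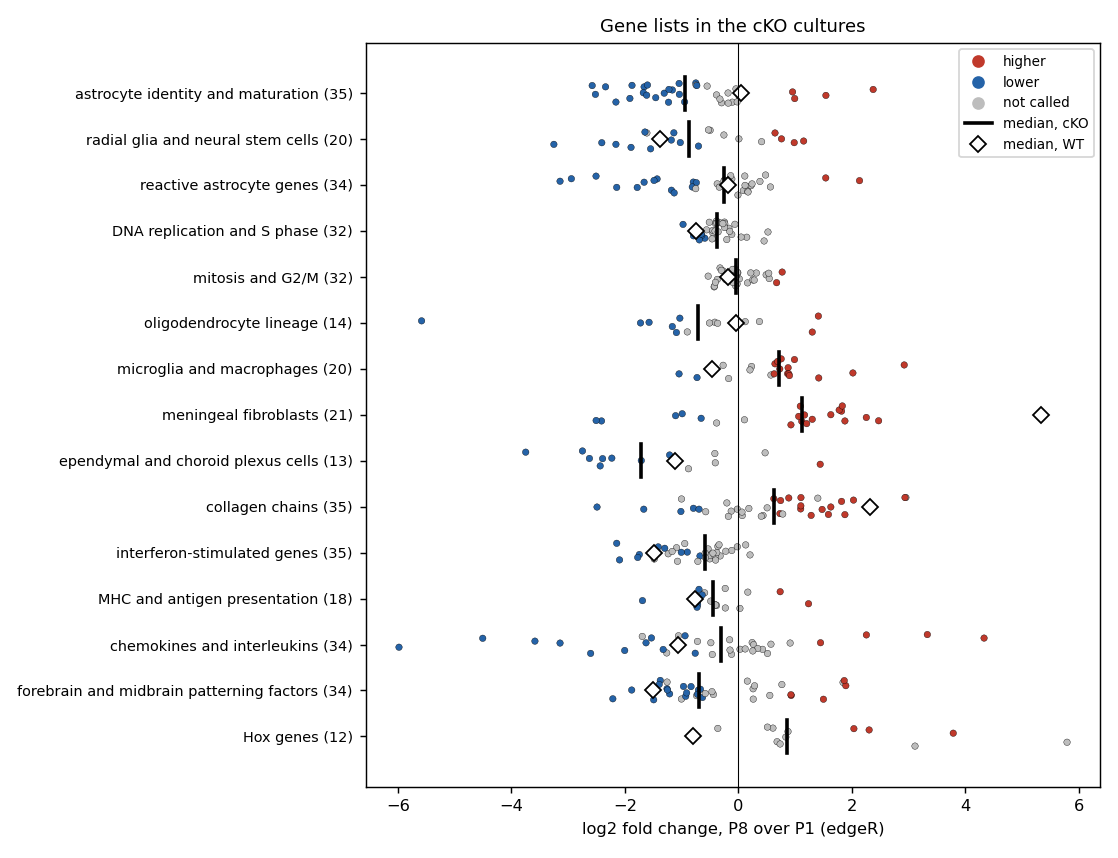
Log2 fold change of P8 over P1 in Rack7-cKO cultures (x axis) for the tested members of 15 gene lists, with the number of members in brackets. Red and blue points were called higher and lower, grey points were not called, the black bar is the list's median in the cKO cultures and the diamond its median in the WT cultures. The median was -0.95 for astrocyte genes, 0.71 for microglia and macrophage genes and 1.12 for meningeal fibroblast genes, for which the WT median was 5.33.

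Genes of DNA replication and of mitosis were called to different extents. Where none of a list is said to have moved in a direction, the count was 0 by edgeR, at an unadjusted p below 0.05 with the same fold change, and by DESeq2. Of 32 genes of DNA replication and S phase 6 fell and none rose, against 9.97% and 10.3% of all genes, with a median of -0.38. *Cdc6*, which loads the replicative helicase, was at 15.6 and 16.4 CPM at P1 and 7.52 and 8.73 CPM at P8 (-0.97 ± 0.104), and *Lig1*, a DNA ligase, at 49.8 and 50.96 CPM at P1 and 30.3 and 32.3 CPM at P8 (-0.69 ± 0.078). *Pcna*, the sliding clamp, was at 131 and 123 CPM at P1 and 139.9 and 142 CPM at P8 and was not called. The number that fell was 8 without P1 replicate 1 and 4 without P1 replicate 2, and 1 member rose without either. Among 32 genes of mitosis none fell and 2 rose, the cyclin gene *Ccnb2* (9.16 and 8.18 CPM at P1 and 14.95 and 14.7 CPM at P8, 0.77 ± 0.13) and the centromeric histone gene *Cenpa* (0.68 ± 0.12), whose call was lost without P1 replicate 2. *Mki67* was at 175 and 169 CPM at P1 and 149 and 153 CPM at P8 and *Top2a* at 147 and 149.7 CPM at P1 and 120.3 and 126 CPM at P8. Their median log2 fold change was -0.042, close to the 0.016 of all genes, and 1 member was called lower without P1 replicate 1 or P8 replicate 2.

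Regulators that hold or release the cycle were called in both directions. *Cdkn2a*, which encodes CDK and MDM inhibitors and is known to rise as cultured cells age, was at 8.48 and 6.99 CPM at P1 and 33.5 and 27.8 CPM at P8 (1.99 ± 0.21). The D-type cyclin genes rose, of which *Ccnd2* was at 714 and 719 CPM at P1 and 1910.5 and 1869.6 CPM at P8 (1.3997 ± 0.042) and *Ccnd1* at 1056 and 1036 CPM at P1 and 1848 and 1823 CPM at P8 (0.81 ± 0.027). *Cdkn1c*, an imprinted CDK inhibitor, was at 6.43 and 8.37 CPM at P1 and 0.668 and 1.14 CPM at P8 (-3.02 ± 0.35), and *Gadd45b*, a stress gene, at 94.002 and 87.2 CPM at P1 and 32.6 and 31.9 CPM at P8 (-1.49 ± 0.14). In all, 6 of 22 rose and 3 fell, with a median of 0.19.

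Microglia and macrophage genes moved the other way from the astrocyte genes. Of 20 tested, 13 rose and 2 fell, with a median of 0.71, and their summed level was 12077 and 12154 CPM at P1 and 20643 and 20700 CPM at P8. *Mrc1*, the mannose receptor known from macrophages at the borders of the brain, was at 175 and 181 CPM at P1 and 1339 and 1368 CPM at P8 (2.93 ± 0.06). *Trem2*, a lipid-sensing receptor of microglia, was at 69.2 and 63.2 CPM at P1 and 272 and 265 CPM at P8 (2.02 ± 0.083), and its partner *Tyrobp* at 163 and 181 CPM at P1 and 353 and 330.2 CPM at P8 (0.99 ± 0.069). *Csf1r*, the receptor these cells need to survive, was at 495 and 519 CPM at P1 and 943 and 921 CPM at P8 (0.88 ± 0.034), and the fractalkine receptor gene *Cx3cr1* at 37.8 and 44.8 CPM at P1 and 61.8 and 75.4 CPM at P8 (0.73 ± 0.14). Of the chains of complement C1q, *C1qb* (0.76 ± 0.057) and *C1qc* (0.65 ± 0.044) were called and *C1qa*, at 927 and 967 CPM at P1 and 1403 and 1419.8 CPM at P8, missed the fold cut-off with 0.58 ± 0.051. The members that fell were *Tmem119*, a marker of resident microglia (46.4 and 48.1 CPM at P1 and 24.3 and 21.5 CPM at P8, -1.04 ± 0.078), and *Cd74*, the invariant chain of class II antigen presentation (6.15 and 5.99 CPM at P1 and 3.68 and 3.65 CPM at P8, -0.73 ± 0.15). In bulk RNA these cells and the astrocytes share each library, and their part in the changes of genes that both express, such as *Apoe*, *Ctsd* and *Ctsb*, was not tested.

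Oligodendrocyte and neuronal markers moved in both directions. Of 14 oligodendrocyte lineage genes 6 fell and 2 rose, against 9.97% and 10.3% of all genes. The lineage factor genes *Olig2* (19.4 and 19.99 CPM at P1 and 5.47 and 6.44 CPM at P8, -1.72 ± 0.11) and *Olig1* (-1.16 ± 0.095) fell, while the myelin gene *Mbp* rose from 21.6 and 17.7 to 52.1 and 52.4 CPM (1.41 ± 0.12). *Cldn11*, a tight junction gene of myelin and of the meningeal barrier, was at 2.11 and 2.98 CPM at P1 and 0.109 and 0 CPM at P8 (-5.58 ± 0.61). The most abundant of the list, *Cnp*, an enzyme of myelin that overlaps *Dnajc7*, was at 65.8 and 63.7 CPM at P1 and 45.7 and 45.4 CPM at P8 and was not called. Without P1 replicate 2 this list had 5 members lower and 1 higher. Among 7 neuronal genes that passed the filter 3 rose and 1 fell: the tubulin gene *Tubb3* was at 10.9 and 11.3 CPM at P1 and 23.3 and 24.3 CPM at P8 (1.099 ± 0.11) and *Syt1*, a synaptic vesicle gene, at 11.9 and 9.16 CPM at P1 and 1.12 and 1.24 CPM at P8 (-3.16 ± 0.23). The members with the highest CPM were not called, with *Stmn2*, a tubulin-binding protein of growing axons, at 105 and 110.4 CPM at P1 and 152 and 152 CPM at P8 (0.499 ± 0.055) and the microtubule protein gene *Map2* at 146 and 69.3 CPM at P1 and 88.1 and 97.9 CPM at P8.

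Vascular markers were split, beside 10.3% higher and 9.97% lower of all genes. Of 13 endothelial genes 3 rose, among them the angiopoietin receptor gene *Tek* (0.816 and 0.404 CPM at P1 and 5.36 and 5.39 CPM at P8, 3.13 ± 0.47) and *Eng* (1.45 ± 0.12), and 3 fell, among them the VEGF receptor gene *Kdr* (19.6 and 16.5 CPM at P1 and 4.57 and 3.06 CPM at P8, -2.24 ± 0.203). Of 17 mural and smooth muscle genes 6 rose and 1 fell. *Myh11*, smooth muscle myosin, was at 2.91 and 2.2995 CPM at P1 and 19.9 and 20.7 CPM at P8 (2.96 ± 0.33), *Rgs5*, a pericyte gene, at 1.17 and 0.614 CPM at P1 and 5.96 and 4.97 CPM at P8 (2.61 ± 0.32) and *Pdgfrb*, the pericyte and fibroblast receptor for PDGF, at 74.04 and 69.7 CPM at P1 and 159 and 164 CPM at P8 (1.17 ± 0.05). *Acta2* and *Tagln*, the contractile genes with the highest CPM, were not called, *Acta2* at 2497 and 2496 CPM at P1 and 2057 and 2036 CPM at P8 and *Tagln* at 1209 and 1206 CPM at P1 and 916 and 899 CPM at P8. The fallers were 2 rather than 1 without P1 replicate 1 or P8 replicate 1.

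Ependymal and choroid plexus genes fell. Of 13 tested, 8 fell and 1 rose, with a median of -1.71, and their sum was 332 and 336 CPM at P1 and 94.01 and 90.03 CPM at P8. *Foxj1*, the master factor of motile cilia, was at 205 and 223 CPM at P1 and 42.4 and 39.2 CPM at P8 (-2.39 ± 0.089). *Pifo*, a protein of the cilium base, was at 2.89 and 2.63 CPM at P1 and 0.218 and 0.1902 CPM at P8 (-3.75 ± 0.35) and *Rarres2*, the attractant chemerin, at 52.6 and 49.1 CPM at P1 and 9.98 and 8.82 CPM at P8 (-2.43 ± 0.16). *Aqp1*, the water channel of the choroid plexus, was the member that rose (7.28 and 6.16 CPM at P1 and 18.9 and 17.7 CPM at P8, 1.44 ± 0.15).

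Meningeal fibroblast genes rose in the cKO cultures, but far less than in the WT cultures. Of 21 tested, 14 rose and 5 fell with a median of 1.12, while in the WT cultures 20 rose and 1 fell with a median of 5.33. For 20 of the 21 the change was lower in cKO than in WT cultures by the interaction term at an adjusted p below 0.05, against 11.7% of all genes. Their sum was 3105 and 3057 CPM at P1 and 8810.2 and 9058 CPM at P8 in the cKO cultures, and 667 and 685 and then 33509 and 31381 CPM in the WT cultures. At P1 the cKO cultures thus stood above the WT cultures and at P8 below them. *Col1a2* was at 849 and 844 CPM at P1 and 2924 and 3055 CPM at P8 (1.82 ± 0.034), and at 74.8 and 74.3 and then 9168 and 9307 CPM in the WT cultures. *Col1a1*, the partner chain of type I collagen, was at 1087 and 1065 CPM at P1 and 3929 and 3990.5 CPM at P8 (1.88 ± 0.045), *Foxc2*, a mesenchymal transcription factor, at 2.36 and 3.11 CPM at P1 and 14.7 and 15.7 CPM at P8 (2.47 ± 0.23), and *Fbln1*, a basement membrane protein, at 13.6 and 13.8 CPM at P1 and 65.7 and 65.3 CPM at P8 (2.26 ± 0.091). The members that fell were *Igf2*, *Dcn*, *Lum*, *Ogn* and *Ptgds*. The meninges had been stripped off before plating, and what part these cells had in the changes of other genes was not tested.

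**Figure D4:**
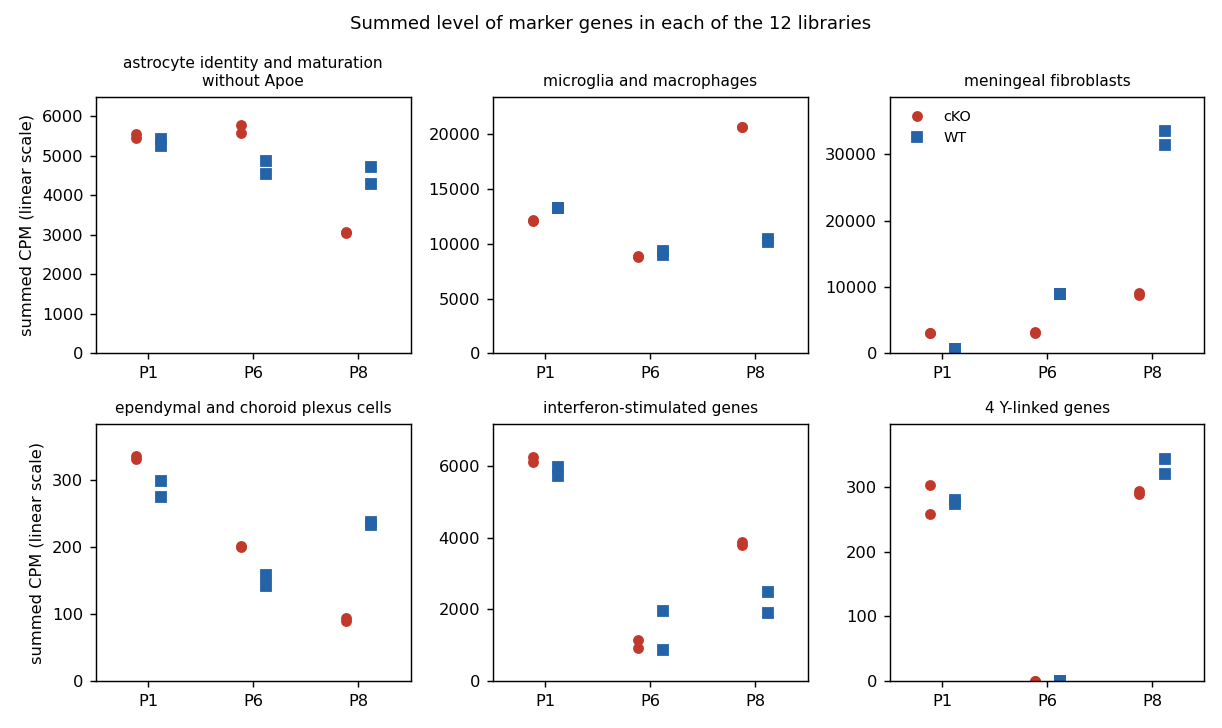
Summed CPM (y axes, linear scales from 0) of 5 marker lists and of 4 Y-linked genes in each of the 12 libraries by postnatal day (x axes), with Rack7-cKO libraries as red circles and WT libraries as blue squares. In the cKO cultures the astrocyte sum without *Apoe* went from 5567.5 and 5462.1 at P1 to 3077.9 and 3059.2 at P8 and the microglia sum from 12077 and 12154 to 20643 and 20700, and all 4 P6 libraries lacked the Y-linked genes.

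Genes of the extracellular matrix rose more often than they fell, and in WT cultures more of them rose. Of 35 collagen chains 15 rose and 5 fell, with a median of 0.63 (0.51 with the chain that had no count in a group at its bound). In WT cultures 26 rose and 5 fell with a median of 2.33, and the interaction term was negative for 22 and positive for 3, against 11.7% and 14.0% of all genes. The fibril-forming chains *Col3a1* (369 and 370.1 CPM at P1 and 1118 and 1170.04 CPM at P8, 1.63 ± 0.059) and *Col5a1* (1.48 ± 0.041) rose, as did the basement membrane chains *Col4a1* (529.8 and 654 CPM at P1 and 1270.5 and 1266 CPM at P8, 1.0999 ± 0.085) and *Col4a2* (1.105 ± 0.036). *Col4a6* and *Col4a5*, which share a bidirectional promoter on the X chromosome, fell by 3.17-fold and 1.73-fold. *Col22a1*, a chain found at tissue junctions, was at 27.5 and 22.3 CPM at P1 and 4.65 and 4.22 CPM at P8 (-2.49 ± 0.204). Among 43 small leucine-rich proteoglycans and other matrix glycoproteins 21 rose and 8 fell with a median of 0.64, and in WT cultures 35 rose and 5 fell with a median of 2.58 (33 negative and 4 positive interaction terms). Biglycan (*Bgn*) was at 646 and 654 CPM at P1 and 2042 and 2058 CPM at P8 (1.66 ± 0.044), fibrillin 1 (*Fbn1*) at 222 and 219.9 CPM at P1 and 841 and 849.7 CPM at P8 (1.94 ± 0.051) and the crosslinking enzyme *Lox* at 637 and 646 CPM at P1 and 1606 and 1617 CPM at P8 (1.33 ± 0.032). The fallers included matrix genes of astrocytes, *Sparcl1*, a synapse-promoting relative of SPARC (114 and 116 CPM at P1 and 18.9 and 20.04 CPM at P8, -2.56 ± 0.075), and *Bcan*, brevican (10.1 and 13.6 CPM at P1 and 1.53 and 1.97 CPM at P8, -2.75 ± 0.23), beside *Dcn* and *Lum*. Of 33 metalloproteases and their inhibitors 12 rose and 6 fell, led by the macrophage elastase *Mmp12* at 18.02 and 18.2 CPM at P1 and 149 and 174 CPM at P8 (3.16 ± 0.22), and the inhibitor gene *Timp2* was at 742 and 723 CPM at P1 and 1650.4 and 1669 CPM at P8 (1.18 ± 0.043).

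Interferon-stimulated genes, which cells switch on when interferon reaches its receptors, were lower at P8 or not called, and none rose. Of 35 tested 10 fell, with a median of -0.58. That count depends on the libraries in the fit: it was 19 with the 4 compared libraries and 17 with the 6 libraries labelled cKO, 16 without P6 WT replicate 2, and 4, 5, 3 and 4 without P1 replicate 1, P1 replicate 2, P8 replicate 1 and P8 replicate 2 of the cKO. The guanylate-binding protein genes *Gbp2* (224 and 242 CPM at P1 and 52.04 and 53.3 CPM at P8, -2.14 ± 0.18), *Gbp3* (197 and 196 CPM at P1 and 46.3 and 45.8 CPM at P8, -2.09 ± 0.403) and *Gbp7* (136 and 134 CPM at P1 and 49.9 and 51.6 CPM at P8, -1.41 ± 0.27) fell. *Rsad2*, encoding the antiviral enzyme viperin, was at 138 and 148 CPM at P1 and 51.2 and 55.2 CPM at P8 (-1.43 ± 0.36), and *Irf7*, a factor that amplifies the response, at 184 and 178 CPM at P1 and 73.6 and 73.5 CPM at P8 (-1.297 ± 0.44). *Ifit3*, an antiviral RNA-binding family member, was at 546 and 583 CPM at P1 and 198 and 207 CPM at P8 and was not called (-1.48 ± 0.55, adjusted p = 0.0632). *Isg15* was at 119 and 119 CPM at P1 and 55.1 and 56.4 CPM at P8 and *Ifit1* at 227 and 243 CPM at P1 and 106 and 118 CPM at P8, and neither was called. The change differed between cKO and WT cultures for 6 members upward and 1 downward, against 14.0% and 11.7% of all genes. In WT cultures 28 of the 35 fell.

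These genes are known to share a promoter element, the interferon-stimulated response element (ISRE), searched here as 2 copies of GAAA with any 2 bases between them, on both strands, in the 250 bases before to 50 bases after each start in RefSeq's promoter table of GRCm38.p6. All 10 members called lower had an entry, and 5 of the 10 held a match. The share was 3.96% of the 11548 tested gene names with an entry, and 3.44% of the 32851 promoters of the table. Of the 25 members not called 16 had an entry and 11 of the 16 held a match, so that a match did not mark the members called lower, and the share over all 25 is not known. The 150 bases before the start are printed for 4 members called lower and for 2 not called, 5′ to 3′ on the gene's strand, with the matches in capitals. They lie at chr3:142620513-142620662 (plus strand), chr3:142559894-142560043 (plus), chr3:142530186-142530335 (plus), chr12:26456453-26456602 (minus), chr4:156200819-156200968 (minus) and chr19:34640739-34640888 (plus), and overlapping matches form 1 longer run in *Gbp3* and *Isg15*.
Gbp2: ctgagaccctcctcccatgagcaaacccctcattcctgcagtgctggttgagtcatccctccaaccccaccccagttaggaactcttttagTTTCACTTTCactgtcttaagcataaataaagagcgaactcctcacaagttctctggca
Gbp3: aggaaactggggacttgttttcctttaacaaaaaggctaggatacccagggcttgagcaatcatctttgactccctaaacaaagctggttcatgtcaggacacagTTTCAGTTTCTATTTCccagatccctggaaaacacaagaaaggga
Gbp7: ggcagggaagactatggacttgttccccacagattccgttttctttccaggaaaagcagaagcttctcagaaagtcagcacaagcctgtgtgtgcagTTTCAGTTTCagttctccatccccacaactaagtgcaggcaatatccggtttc
Rsad2: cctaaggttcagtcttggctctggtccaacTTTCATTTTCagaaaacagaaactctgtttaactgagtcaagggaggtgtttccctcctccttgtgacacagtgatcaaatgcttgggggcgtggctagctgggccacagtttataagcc
Isg15: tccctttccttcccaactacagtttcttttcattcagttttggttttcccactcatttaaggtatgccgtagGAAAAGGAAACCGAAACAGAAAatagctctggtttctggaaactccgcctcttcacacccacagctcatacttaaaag
Ifit1: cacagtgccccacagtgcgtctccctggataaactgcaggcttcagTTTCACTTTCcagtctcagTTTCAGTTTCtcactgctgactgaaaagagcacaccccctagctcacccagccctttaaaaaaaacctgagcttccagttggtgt
Read from the start, the match began at base -59 in *Gbp2*, -45 and -39 in *Gbp3*, -53 in *Gbp7*, -120 in *Rsad2* and -104 and -85 in *Ifit1*, and the 3 matches of *Isg15* began from -78 to -66. In WT cultures *Gbp2* changed by -1.67, *Gbp7* by -1.53 and *Rsad2* by -3.33, and of these the interaction term passed for *Rsad2* (1.903 ± 0.504).

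Antigen presentation and inflammatory signals fell with them in part. Of 18 MHC and antigen presentation genes 7 fell and 2 rose, against 9.97% and 10.3% of all genes. The class I gene *H2-K1* was at 1223 and 1223 CPM at P1 and 759.99 and 725 CPM at P8 and *H2-Q4* at 271 and 273 CPM at P1 and 86.3 and 82.4 CPM at P8 (-1.69 ± 0.21), whereas *H2-D1* was at 1293 and 1334 CPM at P1 and 1486 and 1465 CPM at P8 and *B2m* at 3040.3 and 3028 CPM at P1 and 2576 and 2597 CPM at P8, neither called, and reads of these similar class I genes could be split among them. *H2-DMb1*, which loads peptides on class II molecules, rose (7.19 and 8.09 CPM at P1 and 17.4 and 18.7 CPM at P8, 1.24 ± 0.13). Of 34 chemokines and interleukins 11 fell and 4 rose. *Il1a*, a danger signal of macrophages and epithelia, was at 42.8 and 42.9 CPM at P1 and 2.196 and 1.58 CPM at P8 (-4.51 ± 0.27), *Il1b* at 12.6 and 12.3 CPM at P1 and 1.05 and 1.02 CPM at P8 (-3.59 ± 0.21), *Ccl5*, which draws in T cells, at 293 and 297 CPM at P1 and 50.9 and 46.2 CPM at P8 (-2.603 ± 0.26) and *Ccl2*, which draws in monocytes, at 294 and 307 CPM at P1 and 98.4 and 109.5 CPM at P8 (-1.53 ± 0.12). Those that rose were *Ccl8*, *Cxcl5* (13.8 and 14.5 CPM at P1 and 66.8 and 68.7 CPM at P8, 2.26 ± 0.25), *Cxcl15* and the alarmin *Il33* (26.1 and 29.3 CPM at P1 and 71.5 and 80.01 CPM at P8, 1.45 ± 0.12). Of 20 complement genes 6 rose and 5 fell: *Masp1*, a lectin pathway protease, was at 6.02 and 8.53 CPM at P1 and 38.3 and 35.8 CPM at P8 (2.35 ± 0.22) and *Cfb*, the alternative pathway protease, at 51.3 and 62.4 CPM at P1 and 12.3 and 13.3 CPM at P8 (-2.15 ± 0.22).

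In the canonical pathway Wnt ligands bind Frizzled receptors with LRP5 or LRP6 and stabilise β-catenin. Of 15 ligands 14 were tested, and 4 fell and 3 rose, against 9.97% and 10.3% of all genes, with a median of 0.24. Beside *Wnt7a*, *Wnt7b* was at 18.3 and 18.3 CPM at P1 and 3.301 and 2.59 CPM at P8 (-2.64 ± 0.25) and *Wnt9a* at 32.2 and 33.3 CPM at P1 and 10.04 and 7.92 CPM at P8 (-1.87 ± 0.17), and *Wnt3* was at 2.07 and 0.878 CPM at P1 and 0.109 and 0.428 CPM at P8 (-2.44 ± 0.71). The risers were low: *Wnt10b* was at 0.238 and 0.439 CPM at P1 and 0.996 and 1.201 CPM at P8, *Wnt2b* at 7.16 and 7.27 CPM at P1 and 10.9 and 11.1 CPM at P8 (0.61 ± 0.18) and *Wnt16* had no count at P1 and 0.341 and 0.0951 CPM at P8. The number that rose was 0 without P1 replicate 1, 1 without either P8 library and 5 without either WT library of P1. *Wnt5a*, with the highest CPM of the ligands, was at 44.7 and 53.6 CPM at P1 and 68.2 and 75.7 CPM at P8 and passed only without P1 replicate 2 or P8 replicate 1 (0.68 and 0.62). Of 27 receptors, antagonists and R-spondins 8 rose and 6 fell. *Dkk2*, which binds LRP6, was at 3.38 and 3.34 CPM at P1 and 17.9 and 19.5 CPM at P8 (2.48 ± 0.13), *Rspo3*, which sharpens Wnt signalling, at 4.998 and 4.62 CPM at P1 and 16.96 and 20.2 CPM at P8 (1.95 ± 0.12), and the receptor gene *Fzd10* at 13.8 and 15.9 CPM at P1 and 1.94 and 1.59 CPM at P8 (-3.08 ± 0.197). Among 14 canonical target genes 4 fell and 2 rose, against the same shares of all genes. *Axin2*, a feedback inhibitor, was at 43.9 and 51.4 CPM at P1 and 18.1 and 18.5 CPM at P8 (-1.38 ± 0.12) and *Tcf7*, a transcription factor of the pathway, at 32.7 and 33.2 CPM at P1 and 10.1 and 8.48 CPM at P8 (-1.82 ± 0.11), while *Ccnd1* and *Wisp1* (0.88 ± 0.077) rose.

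BMP and TGF-β genes were split, with 13 of 38 higher and 10 lower. *Grem1*, a secreted BMP antagonist (chr2:113746164-113758646), was at 1.48 and 1.32 CPM at P1 and 23.8 and 22.5 CPM at P8 (4.05 ± 0.19, adjusted p = 5.32e-07), and *Tgfbr2*, a TGF-β receptor, at 216 and 228 CPM at P1 and 602 and 593 CPM at P8 (1.43 ± 0.041). *Bmp6* and *Bmp7* fell, *Bmp6* to 31.6 and 31.8 from 118 and 115 CPM and *Bmp7* to 2.16 and 2.01 from 10.3 and 10.1 CPM. The target genes *Id1*, *Id2* and *Id4*, which hold back differentiation, fell by 1.74-, 2.34- and 2.46-fold. In the Notch pathway 2 of 14 genes rose and 3 fell, against 10.3% and 9.97% of all genes. The ligand gene *Jag1* was at 48.4 and 44.1 CPM at P1 and 93.3 and 90.5 CPM at P8 (0.99 ± 0.068), and *Dlk1*, an imprinted relative of the ligands, at 3.08 and 7.09 CPM at P1 and 0.164 and 0.4399 CPM at P8 (-4.05 ± 0.79), and the counts were 3 and 1 without P1 replicate 1 and 1 and 2 without P1 replicate 2. In the Sonic hedgehog pathway 2 of 12 rose and 3 fell, against the same shares of all genes. *Shh* itself was at 44.1 and 42.8 CPM at P1 and 76.6 and 73.9 CPM at P8 (0.79 ± 0.12), its receptor gene *Ptch1* at 102 and 99.2 CPM at P1 and 66.1 and 65.8 CPM at P8 (-0.61 ± 0.069) and the co-receptor gene *Gas1* at 47.7 and 43.9 CPM at P1 and 25.96 and 23.7 CPM at P8 (-0.88 ± 0.085). *Dhh*, the other riser, lost its call without any 1 library other than those of P6 WT (adjusted p between 0.0575 and 0.227).

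Growth factor and axon guidance genes moved in both directions, beside 10.3% higher and 9.97% lower of all genes. Of 18 genes of the insulin-like growth factor axis 8 rose and 3 fell. *Igf1*, a trophic factor of macrophages, was at 166 and 169.5 CPM at P1 and 729.6 and 740.3 CPM at P8 (2.13 ± 0.069), and *Pappa*, the protease that frees it from binding proteins, at 37.3 and 36.7 CPM at P1 and 170.1 and 172 CPM at P8 (2.21 ± 0.084). *Igf2* was at 233 and 235 CPM at P1 and 46.8 and 41.2 CPM at P8 (-2.41 ± 0.69, adjusted p = 0.0239), and this call was lost without any 1 of the 4 cKO libraries (adjusted p between 0.0655 and 0.122). *Igfbp3* was at 555 and 544 CPM at P1 and 199.7 and 212 CPM at P8 (-1.42 ± 0.048). Of 28 secreted synapse-forming and trophic factors 10 fell and 6 rose. *Cntf*, ciliary neurotrophic factor, was at 28.6 and 31.7 CPM at P1 and 10.2 and 9.23 CPM at P8 (-1.63 ± 0.096) and pleiotrophin (*Ptn*) at 137 and 136 CPM at P1 and 38.8 and 36.97 CPM at P8 (-1.85 ± 0.073), while *Fgf7* was at 12.5 and 12.1 CPM at P1 and 50.05 and 48.2 CPM at P8 (1.998 ± 0.27) and *Bdnf* at 13.4 and 16.7 CPM at P1 and 30.8 and 29.8 CPM at P8 (1.01 ± 0.11). Of 36 axon guidance ligands 10 rose and 9 fell: *Sema3a*, a repellent for growing axons, was at 7.77 and 8.65 CPM at P1 and 34.01 and 48.2 CPM at P8 (2.32 ± 0.39) and *Sema5b* at 17.97 and 18.5 CPM at P1 and 4.41 and 5.58 CPM at P8 (-1.87 ± 0.16).

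Of 15 neuropeptide genes 4 fell and 2 rose, the latter 1 rather than 2 without either WT library of P1, P1 replicate 2, any P6 library or either P8 library of the cKO. *Vgf*, the precursor of several peptides, was at 111 and 111 CPM at P1 and 9.94 and 15.1 CPM at P8 (-3.15 ± 0.205), and *Penk*, proenkephalin, at 4.51 and 5.55 CPM at P1 and 0.396 and 0.487 CPM at P8 (-3.496 ± 0.21). Retinoic acid genes had 5 of 14 higher and 4 lower. For the neuropeptide and the retinoic acid list alike the shares over all genes were 10.3% higher and 9.97% lower. *Cyp26b1*, which breaks retinoic acid down, was at 16.5 and 17.4 CPM at P1 and 135 and 127 CPM at P8 (2.95 ± 0.074), the synthesis gene *Aldh1a1* at 41.6 and 44.95 CPM at P1 and 167 and 173 CPM at P8 (1.97 ± 0.065) and the receptor gene *Rarb* at 12.02 and 10.5 CPM at P1 and 2.54 and 1.58 CPM at P8 (-2.45 ± 0.22).

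Transcription factors that set brain regions fell in 16 of 34 cases and rose in 5, with a median of -0.68. The midbrain and hindbrain factor gene *Pax2* was at 7.84 and 5.74 CPM at P1 and 1.62 and 1.31 CPM at P8 (-2.21 ± 0.23), *Pax7* at 5.25 and 7.601 CPM at P1 and 1.72 and 1.77 CPM at P8 (-1.88 ± 0.38), the forebrain factor genes *Lhx2* at 34.1 and 31.7 CPM at P1 and 11.01 and 14.3 CPM at P8 (-1.38 ± 0.12) and *Otx1* at 14.9 and 14.1 CPM at P1 and 5.02 and 6.003 CPM at P8 (-1.39 ± 0.17). The ventral forebrain and hypothalamic factor gene *Nkx2-1* rose, at 3.32 and 2.14 CPM at P1 and 10.7 and 9.25 CPM at P8 (1.87 ± 0.28), and the roof plate and midbrain factor gene *Lmx1b* was at 1.82 and 3.37 CPM at P1 and 7.54 and 7.14 CPM at P8 (1.501 ± 0.31). Hox genes, which mark hindbrain and spinal cord, were low: of 39 listed 13 had a row of counts and 12 were tested, 3 rose and none fell. The riser *Hoxc5* passed narrowly (2.31 ± 0.79, adjusted p = 0.0496 by edgeR). Its call was lost with DESeq2 size factors in edgeR (adjusted p = 0.0501), with no filter on low counts (0.0523) and with a replicate block (0.0677). It was also lost in most fits that omitted a single library. *Hoxb3* was at 1.07 and 1.44 CPM at P1 and 5.36 and 4.96 CPM at P8 (2.04 ± 0.46) and *Hoxc4* at 0.374 and 0.1404 CPM at P1 and 3.51 and 3.67 CPM at P8 (3.79 ± 1.03), and the count was 1 without P1 replicate 2 or either P8 library. *Hoxb3* lost its call without P1 replicate 1 (adjusted p = 0.0613).

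Stress and metabolic lists were called to different extents, beside 10.3% higher and 9.97% lower of all genes. Of 23 immediate-early transcription factors 7 rose and 2 fell, *Fos* at 30.9 and 35.1 CPM at P1 and 98.6 and 99.99 CPM at P8 (1.59 ± 0.13) and *Egr1* at 92.8 and 90.3 CPM at P1 and 187 and 199.7 CPM at P8 (1.08 ± 0.085), against *Nr4a3* at 9.45 and 7.85 CPM at P1 and 2.11 and 1.78 CPM at P8 (-2.15 ± 0.21), and the fallers were 1 rather than 2 without P1 replicate 1. Of 24 cholesterol synthesis and SREBP target genes 3 rose, among them *Insig1*, which holds SREBP back in the endoplasmic reticulum (0.75 ± 0.069), and none fell. Of 22 glycolysis genes 5 fell, among them the monocarboxylate carrier gene *Slc16a1* at 94.2 and 91.8 CPM at P1 and 38.7 and 43.1 CPM at P8 (-1.18 ± 0.075), none rose (1 without P1 replicate 2), and the pyruvate kinase gene *Pkm* was at 1089 and 1174 CPM at P1 and 1443 and 1395 CPM at P8. Of 25 unfolded protein and stress response genes 5 rose, *Edem1* most, at 119 and 119 CPM at P1 and 262 and 267 CPM at P8 (1.15 ± 0.05), and 1 fell. None of the 15 mitochondrially encoded genes was called by edgeR, by DESeq2 or by the unadjusted cut-off, and these took 4.64% and 4.54% of the reads at P1 and 4.31% and 4.33% at P8.

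Among the subunits of Polycomb repressive complex 2, which writes the repressive mark H3K27me3, and *Zmynd8*, 2 of 13 fell and 1 rose, against 9.97% and 10.3% of all genes. The catalytic subunit gene *Ezh2* was at 36.2 and 36.2 CPM at P1 and 19.8 and 19.8 CPM at P8 (-0.87 ± 0.096), the accessory genes *Phf19* at 14.6 and 12.5 CPM at P1 and 7.71 and 7.03 CPM at P8 (-0.88 ± 0.16) and *Epop* at 2.81 and 2.703 CPM at P1 and 6.38 and 5.09 CPM at P8 (1.06 ± 0.22). *Rbbp4* was at 196 and 192 CPM at P1 and 166 and 162 CPM at P8 and was not called, and 3 members were called higher without P1 replicate 2. Of 6 astrocyte development genes that the study picked on these samples, and which are no independent evidence of their direction, 4 fell (*Gpr37l1*, *Sox8*, *Sox6* and *Pax6*) and *Shh* rose. *Sox8* was at 25.2 and 28.2 CPM at P1 and 10.7 and 11.6 CPM at P8 (-1.26 ± 0.094), *Sox6* at 71.3 and 72.3 CPM at P1 and 35.002 and 32.6 CPM at P8 (-1.09 ± 0.15) and *Pax6*, a factor of cortical radial glia, at 30.01 and 34.1 CPM at P1 and 18.7 and 20.6 CPM at P8 (-0.702 ± 0.16).

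Cultures of WT mice changed over the same interval, which allows each cKO change to be set against theirs. In WT cultures 2580 genes (14.4%) rose and 2692 (15.0%) fell. Of the 1848 genes that rose in cKO cultures 1054 also rose in WT, 720 were not called there and 74 fell, and of the 1788 that fell 1228 also fell, 479 were not called and 81 rose. The median log2 fold change of the genes that rose in cKO cultures was 1.12 there and 0.90 in WT, and of those that fell -1.22 and -1.24. Across genes the changes had a Pearson correlation of 0.511 and a Spearman correlation of 0.512 over 17938 genes, which share libraries and are no independent replicates. The interaction term was positive for 2511 genes (14.0%) and negative for 2095 (11.7%) at an adjusted p below 0.05. Among the genes that rose in cKO cultures it was positive for 531 and negative for 427, and among those that fell for 316 and 370. Of 1199 genes called in cKO but not in WT cultures it passed for 589, so that for the others a difference between the cultures was not shown.

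All 155 genes called in opposite directions passed the interaction term, which opposite calls in the same fit make nearly certain. *Grem1* rose in cKO cultures and was at 1.94 and 1.88 CPM at P1 and 0.673 and 0.429 CPM at P8 in WT (interaction 5.85 ± 0.27, adjusted p = 5.89e-07). Chosen after their values were seen, *Plau*, encoding urokinase, was at 45.2 and 42.9 CPM at P1 and 221 and 225 CPM at P8 in cKO and at 42.1 and 42.9 and 27.5 and 26.5 CPM in WT cultures, and *Clec7a*, a fungal sugar receptor of macrophages, at 42.9 and 45.2 CPM at P1 and 92.2 and 93.9 CPM at P8 in cKO and 32.7 and 35.03 and 16.7 and 16.7 CPM in WT cultures. *Shh* was at 104 and 94.9 and then 7.11 and 9.93 CPM in the WT cultures and *Ccnd1* at 971 and 978 and 629 and 636 CPM, both lower at P8 there and higher at P8 in the cKO. In the reverse group, *Igf2* was at 0.603 and 9.81 CPM at P1 and 5075 and 3058 CPM at P8 in WT (interaction -11.97 ± 1.16), *Dcn*, the proteoglycan decorin, at 9.12 and 8.55 and 1412 and 1479.9 CPM against 89.6 and 89.7 and 45.7 and 44.7 CPM in cKO cultures (interaction -8.34 ± 0.23), and *Lum*, lumican, at 0.5197 and 0.995 and 126 and 131 CPM (interaction -8.48 ± 0.34). *Tnfsf15* was at 1.12 and 2.08 and 5.08 and 4.93 CPM in WT cultures and *Rarb* at 4.59 and 5.21 and 21.1 and 21.7 CPM. *Cldn11* and *Penk*, which fell in cKO cultures, were at 36.6 and 38.6 and 289 and 318 CPM in the WT cultures at P8 against 0.268 and 0.541 and 0.469 and 0.614 CPM at P1.

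**Figure D5:**
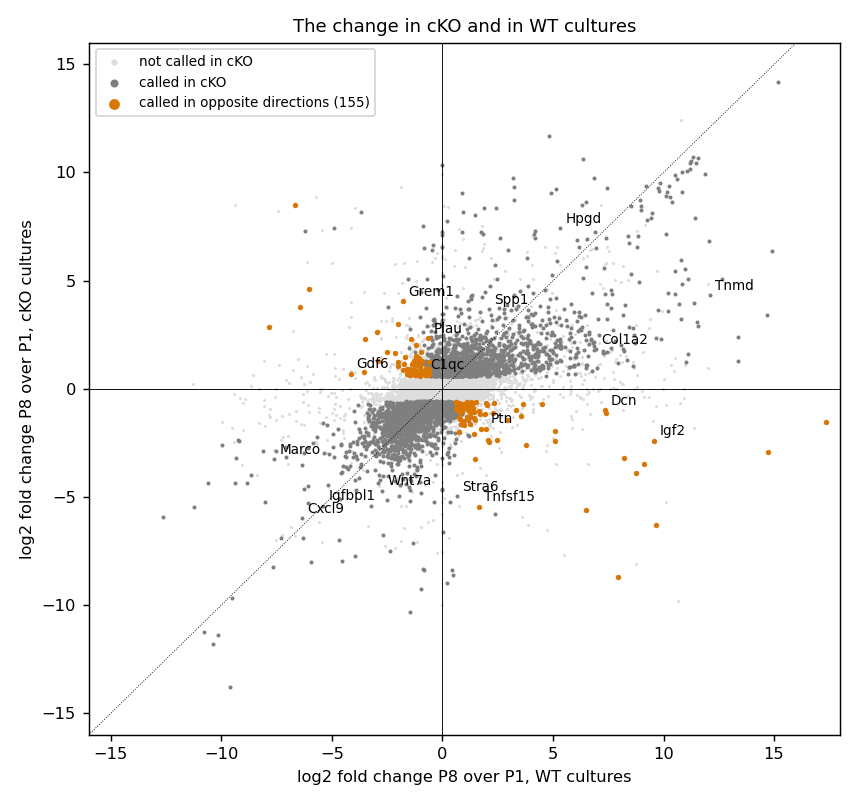
Log2 fold change of P8 over P1 in Rack7-cKO cultures (y axis) against the same in WT cultures (x axis), 1 point per gene, with the dotted line where both are equal. Dark grey points were called in cKO cultures, and the 155 orange points were called in both cultures in opposite directions, such as *Grem1* and *Igf2*.

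The microglia and astrocyte lists can also be set beside WT. For microglia and macrophage genes 15 of 20 were more positive in cKO and 1 more negative, against 14.0% and 11.7% of all genes. Their median was 0.71 against -0.46 in WT, and the WT sums were 13225 and 13229 CPM at P1 and 10418 and 10167 CPM at P8. For astrocyte genes 21 of 35 were more negative in cKO and 3 more positive, against 11.7% and 14.0% of all genes, with medians of -0.95 in cKO and 0.041 in WT. *Kcnj10* was at 230.4 and 248 CPM at P1 and 114 and 110.1 CPM at P8 in WT cultures (interaction -1.48 ± 0.12) and *Gfap* at 390.4 and 402 and 372 and 384 CPM (interaction -1.59 ± 0.081). The most abundant called genes differed too: *Ctsd* was at 6427 and 6613 and 5829 and 5581 CPM in WT (interaction 1.23 ± 0.053) and *Spp1* at 603 and 608 and 2536 and 2613 CPM (interaction 1.58 ± 0.048). *Marco*, a scavenger receptor of macrophages, fell in both, from 981 and 971 to 96.1 and 106 CPM in cKO and from 840.5 and 846 to 4.25 and 4.36 CPM in WT (interaction 4.34 ± 0.11). The microglia and fibroblast sums given above also changed differently in the cKO and WT cultures, and their part in these gaps was not tested.

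At P6 the cKO cultures did not lie on a straight path between P1 and P8, and these libraries had the sex-linked pattern described above. In the step between P1 and P6 1978 genes were higher and 1864 lower, and in that between P6 and P8 2127 and 2185. Only 84 genes rose in both steps and 157 fell in both, while 1064 (5.93%) fell and then rose and 941 (5.25%) rose and then fell. Both steps share the P6 libraries. Of the 1848 genes higher at P8 than at P1 the P6 mean lay between the other means for 972, below both for 475 and above both for 401, and of the 1788 lower ones for 935, 334 and 519. At P6 *Spp1* was at 2594 and 2683 CPM, *Hpgd* at 46.6 and 44.3 CPM and *Kcnj10* at 119 and 140.3 CPM, each between its levels at P1 and P8, and *Cxcl9* at 0.122 and 0 CPM, below both.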

How the data were processed

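Primary astrocyte cultures were sequenced by the authors as mRNA and the reads mapped with HISAT2 to mm10 (GRCm38), per the labels and the study's methods, which name ballgown and DESeq2 for the tests. Not given in the sources used here were the counting program, its annotation and its strand setting. Reads of overlapping or similar genes could have gone to either. The authors deposited raw counts for 18903 genes, whole numbers with no normalization. Positions came from GENCODE vM21 (GRCm38) and promoters from RefSeq (GRCm38.p6), which held one for 11548 of the gene names tested.

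The 12 libraries were fitted in R 4.3.3 with edgeR 4.0.16 (TMM, filterByExpr, 1 mean for each of 6 groups), with the contrasts P8 minus P1 in cKO and its difference from WT (the interaction term, called at an adjusted p below 0.05). The SE is the log2 fold change divided by the root of F. A group without any read was set to a floor of 3 counts in all, and such bounds cover counting error only. With 2 libraries a group an exact permutation test cannot go below p = 0.333 for a single gene. The library totals gave a floor of 0.0259 CPM over the P1 pair and 0.0191 CPM over the P8 pair. Replicates differed by more than counting noise (chi-square per degree of freedom 30.5 at P1 and 34.7 at P8).

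Members and lists were chosen with earlier results of these data known, so that list counts are descriptions. Genes were named by a rule: the 12 largest rises and falls with a mean of at least 5 CPM, the 6 most abundant called genes each way, in each list the 3 called members with the largest change and the 2 with the highest CPM, the 5 largest interaction terms each way, and *Zmynd8*. Other genes were named after their values were seen, and some that the rule picked are not reported here. The alternatives tried were a 2-fold threshold, the unadjusted p, DESeq2 1.42.0 and its size factors, no filter, a replicate block, fits on 4, 6 or 8 libraries, and fits that omit a single library, in which the remaining library of its group takes the spread of the other groups.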

Additional observations from a re-analysis of the deposited data

Results flagged for a closer look

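The change from P1 to P8 differed between cKO and WT cultures by the interaction term of edgeR's quasi-likelihood test, positive for 2511 genes and negative for 2095. Among the genes named for the size or level of their change in the cKO cultures or for the term itself, this term (log2, cKO change minus WT change) was positive for *Grem1* (5.85), *Gm21982* (5.47), *Gdf6* (4.84), *P2rx3* (4.74) and *Marco* (4.34). It was also positive for *Fabp4* (2.58), *Hpgd* (2.10), *Spp1* (1.58), *Nes* (1.53), *Ctsb* (1.39), *Ctsd* (1.23), *Lyz2* (1.07), *Cp* (1.05), *H2-K1* (0.97), *Pea15a* (0.66) and *C3* (0.50). For *Grem1*, *Gdf6*, *Ctsb*, *Ctsd* and *Lyz2* the cKO change was positive and the WT change negative (-1.81, -4.16, -0.33, -0.19 and -0.44), while for *Marco*, *Nes*, *Cp*, *H2-K1*, *Pea15a* and *C3* both fell, the cKO less. The rise of *Gdf6*, a BMP family ligand, was not called without any 1 of the cKO libraries (adjusted p between 0.0603 and 0.177).

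The term was negative for *Igf2* (-11.97), *Prdm6* (-11.31), *C4bp* (-8.53), *Lum* (-8.48), *Dcn* (-8.34), *Tnmd* (-7.76), *Tnfsf15* (-7.08), *Stra6* (-5.61), *Abi3bp* (-3.10), *Wnt7a* (-1.99), *Fn1* (-0.62) and *Prnp* (-0.40). *Prdm6* and *C4bp* had no count in either WT library of P1, so that their terms depend on the fit and are no bound, and with the floor of 3 counts their WT levels were at least 2312.5-fold and 2645.7-fold higher at P8. *Prdm6*, a transcriptional repressor of smooth muscle, was at 0.782 and 0.965 CPM at P1 and 9.75 and 8.55 CPM at P8 in the cKO cultures and at 0 and 0 and then 49.8 and 48.6 CPM in the WT cultures. *Tnmd* was at 0 and 0.0492 and then 131 and 129 CPM there, and *C4bp* at 0 and 0 and 54.99 and 57.6 CPM. Many of these are matrix or mesenchymal genes, and *Igf2*, *Dcn* and *Lum* are themselves on the meningeal fibroblast list. The sum of that list went from 667 and 685 to 33509 and 31381 CPM in WT and from 3105 and 3057 to 8810.2 and 9058 CPM in cKO cultures. *Igf2*, *Dcn* and *Lum* fell in the cKO cultures, where the sum rose. The part of these cells in the differences was not tested.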

How the results depend on the processing

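With a fold change of at least 2 the cKO counts became 1078 up and 1127 down, and with at least 1.5 required of the interaction term its positive count became 1665. Under the other alternatives each count stayed within 1.5 times. Leaving out 1 library at a time gave 1514 to 1847 genes up and 1512 to 1802 down, and 1947 to 2572 positive and 1675 to 2156 negative interaction terms. DESeq2 called 1899 up and 1923 down on all 12 libraries and 1820 and 1932 on the 4 compared ones. The replicate numbers did not pair the libraries: deviations of same-numbered libraries correlated at 0.0161 between P1 and P8 of the cKO (15 pairs of groups, -0.0627 to 0.0442). With the replicate block the counts were 1787 up and 1741 down, and 2388 and 1984 for the interaction.

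Of 215 genes the naming rule picked, 168 were called and 47 of these lost the call in at least 1 of 21 alternatives. None of the 215 reversed, and 4 gained a call. In the fit on the 4 compared libraries, which estimates the spread without P6 and WT, the interferon-stimulated genes called lower went from 10 to 19. Low genes are limited by depth: the floor of 3 counts is 0.0191 CPM over the P8 pair. The number of animals behind each library and their sex are not given.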

Other observations

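Some gene families were looked at after their values were seen and are given as description. All 10 guanylate-binding protein genes tested, a family of interferon-induced GTPases that attack vacuoles of intracellular pathogens, were lower at P8 in the cKO cultures, against 9.97% of all genes. Their median log2 fold change was -2.19, with sums of 1049.9 and 1073 CPM at P1 and 279 and 290.02 CPM at P8. At a fold change of at least 2, 8 of the 10 were called lower, and in WT cultures 9 fell. Reads of this family could be split among near-identical copies. *Gbp6* was at 157 and 161 CPM at P1 and 32.4 and 35.3 CPM at P8 and *Gbp5*, which helps to form inflammasomes, at 54.5 and 59.2 CPM at P1 and 9.97 and 8.08 CPM at P8 (-2.66 ± 0.35). *Saa3*, an acute phase protein of macrophages and glia, was at 1130.2 and 1144 CPM at P1 and 132 and 129.8 CPM at P8 (-3.12 ± 0.22), and in the WT cultures it changed by -3.49. All 4 haemoglobin genes fell as well, from sums of 166.6 and 197.9 CPM to 0.0546 and 0.0476 CPM.

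Cathepsins were called higher more often than all genes (10.3%), and most subunits of the vacuolar proton pump were not called. Of 13 cathepsins 7 rose and 1 fell, with summed levels of 13858 and 13977 CPM at P1 and 25827 and 25840 CPM at P8. Their interaction term was positive for 7 and negative for 1, against 14.0% and 11.7% of all genes. Of 20 subunits of the vacuolar proton pump, which acidifies lysosomes, 3 rose and 1 fell, against 10.3% and 9.97% of all genes. The interaction term was positive for 16 of them and negative for 1, against 14.0% and 11.7% of all genes. In WT cultures their median was -0.37 against 0.28 in cKO. *Atp6v0d2*, a pump subunit of macrophages and osteoclasts, was at 0.986 and 1.37 CPM at P1 and 19.1 and 19.6 CPM at P8 (4.04 ± 0.25). *Lpl*, the lipoprotein lipase of lipid-laden macrophages, was at 53.7 and 52.9 CPM at P1 and 730.4 and 741 CPM at P8 (3.79 ± 0.063) in the cKO and at 97.1 and 86.9 and 99.1 and 108 CPM in the WT cultures. *Folr2*, a folate receptor of border macrophages, was at 3.86 and 4.21 CPM at P1 and 75.4 and 80.99 CPM at P8 (4.28 ± 0.21) and in WT cultures at 2.08 and 2.91 and 5.13 and 7.11 CPM. The galectin gene *Lgals3*, a mark of phagocytes, was at 189 and 218 CPM at P1 and 397 and 411 CPM at P8 (0.99 ± 0.11) and was the 1 of 8 galectins called.

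Motile cilia genes fell with *Foxj1*. Of 8 axonemal dynein heavy chain genes, the motors of the beating axoneme, 7 fell and 1 rose. *Dnah5* was at 10.3 and 10.1 CPM at P1 and 0.4501 and 0.678 CPM at P8 (-4.17 ± 0.23) and *Dnah11* at 5.305 and 4.67 CPM at P1 and 0.164 and 0.262 CPM at P8 (-4.53 ± 0.35). The riser, *Dnah8*, was at 0.06801 and 0.632 CPM at P1 and 1.64 and 1.97 CPM at P8, and it was not called without either P8 library.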
